A study of Mus musculus with 2 samples.

Results

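The cells described here are epithelial cells of the mouse cornea that carried the transcripts of DNA replication, taken as cluster 11 of the deposited table of cells. They numbered 1174 of 28867 cells, 612 of 16450 in the library of unwounded corneas (UW) and 562 of 12417 in the library of wounded corneas (W). Cells were chosen by the authors' cluster number alone. The clusters had been drawn from the same transcripts, so a level in cluster 11 set against the other clusters is a description and was not tested.

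Corneas of male mice aged 6 to 8 weeks were dissociated and the cells counted by droplet single-cell RNA sequencing, in which each RNA molecule carries a unique molecular identifier (UMI). In the W group the central corneal epithelium had been marked with a trephine and scraped off with an Algerbrush II, and the corneas were taken 24 h later, whereas the UW group had no wound. The strain was not given in the sources used here. Each library pooled the cells of 4 mice, so there was 1 library per condition, and although the study's methods name Souporcell for telling the mice apart, the table of cells used here does not give the mouse of a cell, so no spread between mice was measured.

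In S phase a cell copies its genome. Origins of replication are licensed beforehand by the loading of the MCM2-7 helicase, and firing factors, polymerases, the sliding clamp and enzymes that make deoxynucleotides then act at the fork. The E2F transcription factors, held back by the retinoblastoma protein until cyclin-dependent kinases act, switch on most of these genes, while the genes of mitosis come on later under B-Myb and FoxM1. In the cornea, dividing cells sit in the basal layer, and limbal stem cells at the rim of the cornea supply basal cells after injury.

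Levels are given in CPM, the UMI count of a gene summed over the cells of a cluster in a library, per 1000000 UMIs of that sum. Cluster 11 held 13000178 UMIs in UW and 19908039 in W. The median cell had 21461 UMIs and 4265 genes in UW, and 35514 UMIs and 5458 genes in W, with 3.21% and 2.39% mitochondrial UMIs. The ranges in brackets are exact Poisson 95% intervals of CPM, exact Clopper-Pearson 95% intervals of shares and exact conditional 95% intervals of log2 ratios, and all of them cover counting error only. A gene is called higher or lower where its log2 ratio was at least 1 in size. Genes were compared where the 2 sums held 20 counts or more together and 1 of them reached 10 CPM. A gene under 10 CPM in UW could enter only by being high in W, and the reverse, so counts over compared members lean towards a difference, and for lists with many such members the counts over all members are given too. No cell barcode was shared between the UW and W cells of cluster 11, and 2 barcodes of its UW cells also occurred among other W cells.

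Cluster 11 made up 3.72% (3.44 to 4.02) of all UW cells and 4.53% (4.17 to 4.91) of all W cells in the deposited table. For both libraries this table held fewer cells than the study reported after quality control, and its cluster numbers had a gap. The shares are therefore shares of the deposited cells only. Cluster sizes rest on genes that differed between the libraries, so these shares are descriptions.

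The promoters of the marker and origin licensing genes were read for the binding site of E2F, because it is the sequence that this group of genes is best known to share. The letters searched were TTTCCCGC and TTTGGCGC on both strands, from 250 bases before to 50 bases after each RefSeq start (GRCm38.p6). At least 1 of these sites lay in 1.56% of all 32851 promoters, and in 1.80% of the 27025 genes with a promoter. Of the 19 marker and licensing genes, 17 had a promoter in the table and 9 of those held a site. Among all 117 replication genes listed for this work, 96 had a promoter and 22 held a site, against 0 of 26 mitosis genes with a promoter. The promoter of Mcm6, a subunit of the helicase, held a pair of sites before its start, shown in capitals on the minus strand of chr1:128359706-128359815, 5′ to 3′.
Mcm6: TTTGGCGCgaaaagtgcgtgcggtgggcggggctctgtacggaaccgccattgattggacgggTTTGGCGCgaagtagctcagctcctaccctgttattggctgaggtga

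The remaining sites before a start are shown to compare their flanks, each in 30 bases of the gene's own strand with the site in capitals. The positions are chr8:75109349-75109378 (plus strand) for Mcm5, chr5:138172030-138172059 (minus) for Mcm7, chr19:38930917-38930946 (plus) for Hells, chr11:98908002-98908031 (plus) for Cdc6, chr4:34614965-34614994 (minus) for Orc3 and chr7:128740436-128740465 (minus) for Mcmbp.
Mcm5: caagaactttcGCGCCAAAacgtccagcct
Mcm7: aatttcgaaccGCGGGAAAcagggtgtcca
Hells: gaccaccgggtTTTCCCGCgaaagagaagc
Cdc6: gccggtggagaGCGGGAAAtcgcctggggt
Orc3: ccatgcctcccTTTCCCGCacgccccgcct
Mcmbp: ggtggccgcgaTTTCCCGCcattgtgagaa

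In Mcm5, Mcm7 and Cdc6 the site read on the gene's own strand as the reverse complement. Mcm3 and Cdt1 held their sites after the start, within the transcribed bases. Mitosis genes held another element instead, the CHR (TTTGAA), in 19 of 26 genes with a promoter. Those letters lay in 20.2% of all genes with a promoter, and in 15 of 96 replication genes. The CCAAT box, which lay in 41.1% of all genes with a promoter, occurred in 21 of the 26 mitosis genes and 56 of the 96 replication genes. A match of letters is a description and not a site shown to be bound.

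The label of S phase was described with 5 markers, Mcm3, Mcm6, Uhrf1, Hells and Ung. The clusters had been drawn from the same transcripts, so high levels of these markers in cluster 11 cannot test the label. Mcm3, a helicase subunit, stood at 109.7 CPM (104 to 116) in UW and 152.5 CPM (147 to 158) in W. Mcm6 stood at 121 CPM (115 to 127) in UW and 129.6 CPM (125 to 135) in W. Both were highest in cluster 11 of the 12 UW and 16 W clusters with at least 50 cells. Uhrf1, which brings the maintenance DNA methyltransferase to copied DNA, stood at 69.3 CPM in UW and 112 CPM in W. It ranked behind the 95 CPM of cluster 8 in UW and first in W. Hells, a chromatin remodeller of the same process, stood at 92.2 CPM in UW and 81.0 CPM in W. Ung, the uracil-DNA glycosylase that clears uracil at the fork, stood at 39.2 CPM in UW and 80.5 CPM in W. Stromal cells of cluster 0, used here for the background, held between 0.914 and 4.32 CPM of the 5 markers in UW and between 2.65 and 7.70 CPM in W.

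Epithelial genes stood above, and stromal genes below, their levels in stromal cells. Krt5, a basal keratin, stood at 6234 CPM in UW and 6361 CPM in W, against 459 and 426 CPM in stromal cells, and the cornea-specific Krt12 stood at 24620 and 11176 CPM, against 1554 and 736 CPM. Pax6, the master factor of the eye, stood at 280 CPM (271 to 289) in UW and 226 CPM (219 to 232) in W, against 19.4 and 20.4 CPM in stromal cells. Immune clusters of W held more of these genes than stromal cells did. Their highest levels were 2402 CPM of Krt5, 6048 CPM of Krt12 and 86.0 CPM of Pax6, each under that of cluster 11 in W. The list of stromal markers, which holds Kera, Lum and Dcn, summed to 441 CPM in UW and 343 CPM in W, compared with 83838 and 44173 CPM in stromal cells of cluster 0. The leukocyte gene Ptprc had no count in UW and 0.251 CPM in W.

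**Figure D1:**
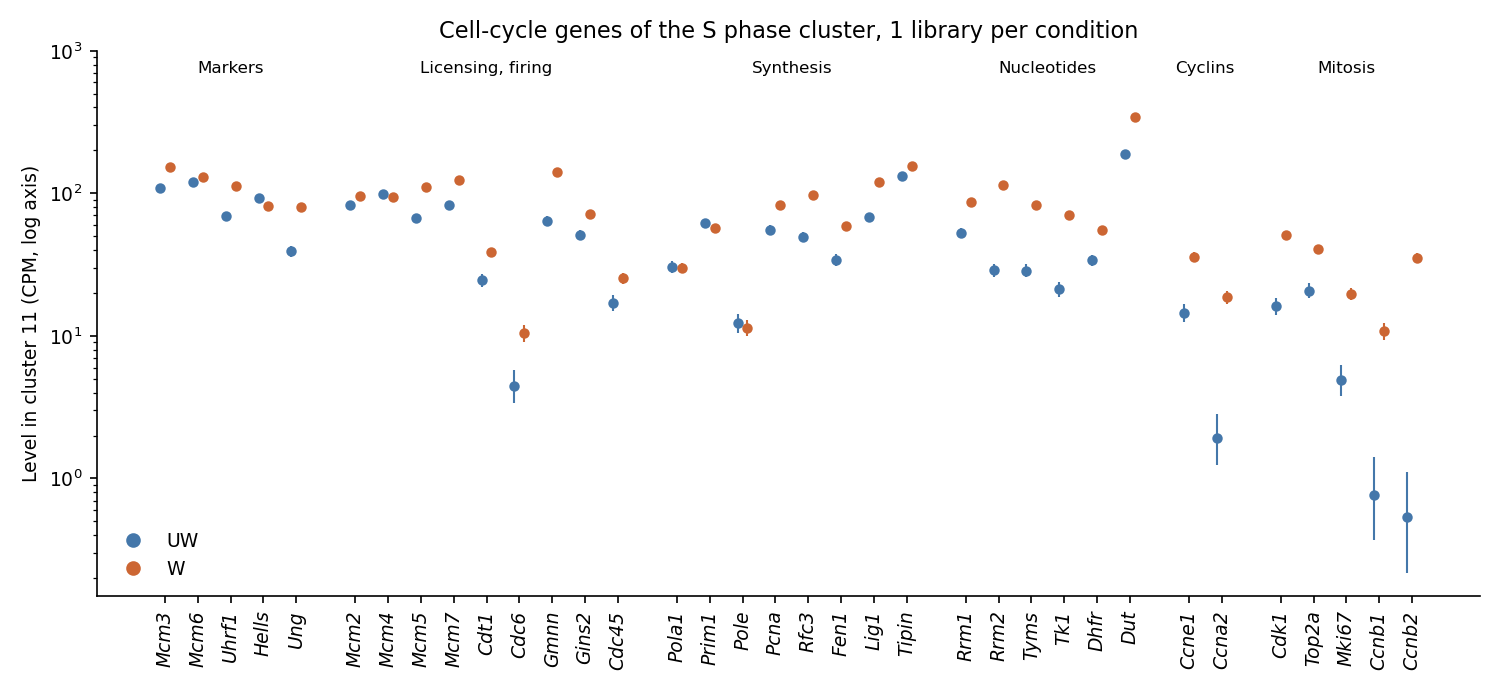
Levels of cell cycle genes in cluster 11, in CPM on a log axis, for the UW library (blue) and the W library (orange), with exact Poisson 95% intervals as bars. Mcm6 (121 and 129.6 CPM), Mcm4 and Hells sit close together in both libraries, Uhrf1, Mcm5 and Ung (39.2 and 80.5 CPM) sit higher in W, and Ccna2 (1.92 and 18.6 CPM) and Ccnb2 (0.538 and 35.2 CPM) sit far apart, as does Ccnb1.

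Set against the other epithelial clusters 1 to 9 summed, the 10 leading genes of cluster 11 were Uhrf1, Mcm3, Hells, Mcm2, Mcm6, Mcm4, Mcm5, Mcm7, Gins2 and Tipin. Their log2 ratios were between 2.82 and 4.20 in the UW library, and in the W library between 1.55 and 2.06. The list held all 6 subunits of the MCM2-7 helicase, a subunit of the GINS complex that activates it, and Tipin, which steadies the fork.

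Cluster 8, the cluster with the highest levels of the mitosis genes Mki67 and Top2a, also held many replication transcripts, as cluster 9 did in part of its cells. Of 7066 genes compared, 0 (0%) were at least 2-fold higher in cluster 11 than in cluster 8 in both libraries, and 146 (2.07%) were at least 2-fold lower. Those 146 held 29 of 30 mitosis genes. Mki67 stood at 4.92 CPM in cluster 11 of UW and 504 CPM in cluster 8, and in W at 19.8 and 183 CPM. Top2a, the topoisomerase that untangles copied chromosomes, stood at 20.8 and 536 CPM in UW and at 40.7 and 279 CPM in W. Of 14 linker and variant histone genes compared, 7 were lower in cluster 11, among them H2afx, at 30.2 against 322 CPM in UW and 86.4 against 408 CPM in W. Of 102 replication genes 2 were lower past the fold, a share like the 2.07% of all genes, namely Asf1b, a histone chaperone, and Dbf4, the activator of the Cdc7 kinase. Among the 10 genes nearest to being higher in cluster 11 were Tgm2, a transglutaminase, with log2 ratios over cluster 8 of 0.67 in UW and 0.70 in W, and Mcm6 with 0.52 and 0.59. Krt12 had 0.51 in both, and Nrg1, a ligand of the ErbB receptors, 0.55 and 0.51.

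Cluster 3 was set beside cluster 11 as an epithelial cluster with few replication transcripts and like levels of Krt5 and Krt12. Of 6851 genes compared, 131 (1.91%) were at least 2-fold higher in cluster 11 in both libraries, and 60 of the 91 replication genes compared were among them. Only Mxd4, a Myc antagonist, was lower past the fold (1 gene, 0.0146%). The largest ratios were those of Uhrf1, Hells, Mcm3, Mcm5 and Lig1, the ligase that joins Okazaki fragments. Lig1 stood at 68.3 CPM in cluster 11 and 4.06 CPM in cluster 3 of UW, and at 120.4 and 25.2 CPM in W. Of the mitosis genes 6 could be compared, and Cdk1 and Top2a were higher in cluster 11 in both libraries.

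The contrast of the libraries within cluster 11 asks how S phase cells differed 24 h after wounding. Of 7809 genes, 702 (8.99%) were at least 2-fold higher in W and 622 (7.97%) at least 2-fold lower, with a median log2 ratio of W over UW of 0.01 over all of them. TMM factors turned this split to 637 higher and 693 lower. These shares of all genes are the background for the count of each list, and 1 or 2 genes past the fold in a list are given as values of those genes, not as a result about the list. All 117 replication genes fall into 8 lists, and 100 of them passed the filter. Of these, 19 were higher in W, 0 were lower, and 74 had a ratio above 0, with a median of 0.48. Of the 100, 9 entered through W alone, and of the 91 at 10 CPM or more in both libraries 12 were higher and 0 lower. Over all 117 genes, each with at least 20 counts, 90 had a ratio above 0. The same lists had a median of 0.76 in cluster 3 and of -0.08 in cluster 8, and these differences between clusters were not tested.

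Of 14 origin licensing genes that passed the filter, 2 were higher in W and 0 lower, beside 8.99% and 7.97% of all genes. A ratio above 0 was found in 9 of the 14, and their median was 0.35, beside 0.01 over all genes. Of the 14, 1 entered through W alone. Of the 13 at 10 CPM or more in both libraries 1 was higher, with a median of 0.22 over the 13. Mcm2, Mcm4 and Mcm6 had log2 ratios of 0.22, -0.07 and 0.10, and Mcm3, Mcm5 and Mcm7 of 0.48, 0.74 and 0.57. The subunits Orc2, Orc3 and Orc4 of the origin recognition complex lay between -0.29 and -0.18. Gmnn, geminin, which blocks a second licensing during S phase, was higher at 64.4 CPM in UW and 142 CPM in W, a log2 ratio of 1.14 (1.03 to 1.25). Cdc6, a loader of the helicase, entered through W alone and was higher at 4.46 and 10.4 CPM, a log2 ratio of 1.23 (0.80 to 1.67).

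Of 7 origin firing genes, 2 were higher in W, and of the 5 at 10 CPM or more in both libraries 1 was. Mcm10, which entered through W alone, stood at 4.92 CPM in UW and 14.5 CPM in W, and Dbf4 at 10.1 and 22.6 CPM. The GINS subunit Gins2 had 51.2 and 71.7 CPM, within the fold. Among 12 polymerase and primase genes 8 had a ratio above 0, with a median of 0.64 and a range from -0.57 to 1.32. Of the 12, only Prim2, the large subunit of primase, was higher past the fold, at 10.1 and 25.2 CPM. Pola1 (30.4 and 30.1 CPM), Prim1 (62.0 and 57.5 CPM) and Pole (12.2 and 11.4 CPM) were level within counting error.

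Of 8 clamp and loader genes 1 was higher, beside 8.99% of all genes, and 0 of the 7 at 10 CPM or more in both libraries. It was Dscc1, of the alternative loader, at 8.69 CPM in UW and 27.5 CPM in W, which entered through W alone. Pcna, the sliding clamp, stood at 55.5 and 82.9 CPM, a log2 ratio of 0.58 (0.45 to 0.71). Of 13 fork genes, 2 were higher. They were Clspn, claspin, which relays the checkpoint signal, at 10.8 and 34.6 CPM, and Rpa3, of the single-strand binding complex, at 38.9 and 82.3 CPM.

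Nucleotide supply held the gene with the largest ratio of the compared replication genes, Rrm2. Of 21 genes, 5 were higher in W, with a median of 0.67. Of the 20 at 10 CPM or more in both libraries 4 were higher, with a median of 0.64. Rrm2, the regulated subunit of ribonucleotide reductase, stood at 28.9 CPM (26.1 to 32.0) in UW and 114 CPM (109.6 to 119) in W, a log2 ratio of 1.98 (1.82 to 2.14). Tk1, thymidine kinase, stood at 21.3 and 70.8 CPM, and Tyms, thymidylate synthase, at 28.7 and 82.9 CPM. Cad and Shmt2, of pyrimidine and one-carbon metabolism, were higher as well, with log2 ratios of 1.27 and 1.67. In cluster 8 the levels of Rrm2 were 141 CPM in both libraries, so the ratio of cluster 11 over cluster 8 was -2.28 in UW and -0.30 in W on the log2 scale. For Clspn that ratio was -2.57 in UW and -0.35 in W, and for Tk1 -2.07 and -0.66. These genes were named for being higher in W, so that W lay nearer to cluster 8 follows in part from the choice. Mcm6, Hells and Mcm3 stood above cluster 8 in both libraries, with ratios of 0.52, 0.37 and 0.39 in UW and 0.59, 0.59 and 0.62 in W.

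Among 14 genes of chromatin copying, Asf1b and Chaf1b, both chaperones of new histones, were higher in W, at 7.38 and 24.4 CPM and at 18.1 and 37.9 CPM. Asf1b entered through W alone, and of the 13 at 10 CPM or more in both libraries 1 was higher. Dnmt1, the maintenance DNA methyltransferase, stood at 84.4 and 102 CPM, within the fold. Of 11 repair genes, 4 were higher, 2 of which entered through W alone. Among the 4 were Ung and the exonuclease gene Exo1, which had log2 ratios of 1.04 and 1.02 and fell under 1 with TMM factors.

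Of 13 cyclin and E2F genes of the G1 to S step that could be compared, 3 were higher in W and 1 lower. Of these, 3 entered through W alone and 1 through UW alone, and of the 9 at 10 CPM or more in both libraries 1 was higher and 1 lower, with a median of 0.03. Ccna2, cyclin A, which drives S phase and its exit, stood at 1.92 CPM (1.24 to 2.84) in UW and 18.6 CPM (16.8 to 20.6) in W, a log2 ratio of 3.28 (2.69 to 3.92). Ccne1, cyclin E, stood at 14.5 and 36.0 CPM. E2f8, a repressor of E2F targets, stood at 2.62 and 17.0 CPM. Rb1, the retinoblastoma protein, was the 1 lower gene of the 13, at 36.8 CPM in UW and 15.2 CPM in W, and this call was lost with cells thinned to 5000 UMIs (-0.86). E2f1, the activator, was within the fold at 20.2 and 25.8 CPM.

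Of 17 genes for G1 cyclins and inhibitors, 0 were higher in W and 1 was lower. Ccnd2, cyclin D2, stood at 472 CPM in UW and 138 CPM in W, a log2 ratio of -1.77 (-1.84 to -1.71). Ccnd1 had -0.95 and Cdkn1a, the inhibitor p21, -0.99, both just within the fold. Ccnd1 passed it with cells thinned to 5000 UMIs and Cdkn1a with TMM factors. Myc stood at 51.5 and 46.3 CPM.

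Mitosis genes were low in cluster 11 in both libraries but higher in W. The 30 genes summed to 204 CPM in UW and 549 CPM in W, compared with 4932 and 3346 CPM in cluster 8. All 30 had at least 20 counts, and the log2 ratio of W over UW was above 0 in 30 of them, with a median of 1.79. Of the 17 that reached 10 CPM, 12 did so in W alone, and of the 5 at 10 CPM or more in both libraries only Cdk1, the kinase that starts mitosis, was higher past the fold, at 16.2 and 50.9 CPM. The median over the 17 was 1.73 and serves here only to set the clusters side by side. The same 17 genes had a median of 1.82 in cluster 3 and of -0.33 in cluster 8, and ratios above 0 were thus also seen in cluster 3. Ccnb2, cyclin B2, which drives entry into mitosis, stood at 0.538 CPM in UW and 35.2 CPM in W. Birc5, survivin, stood at 3.46 and 47.1 CPM, and Cenpa, the histone of the centromere, at 3.23 and 44.0 CPM. Top2a was within the fold at 0.97, and passed it with cells thinned to 5000 UMIs (1.10) or without cells of first-run doublet calls (1.01). In stromal cells of cluster 0 Ccnb2 had 1.58 CPM in UW and 4.81 CPM in W, and Birc5 1.69 and 7.61 CPM, so stromal cells also held more of both in W. In UW the level of Ccnb2 in cluster 11 lay under that of stromal cells. In W the neutrophil cluster 13 held 17.4 CPM of Mki67, 13.1 CPM of Ccnb1 and 49.0 CPM of Ube2c, where cluster 11 held 19.8, 10.8 and 30.3 CPM. For Cdk1 and Top2a it held 32.1 and 20.7 CPM, where cluster 11 held 50.9 and 40.7 CPM. Where the UMIs of mitosis genes in cluster 11 came from was not tested.

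Single cells were compared after each was thinned to 5000 UMIs, which left out 12 UW and 6 W cells of cluster 11. The median cell held 25 UMIs of the 117 replication genes in UW (quartiles 20 and 33) and 33 in W (quartiles 25.75 and 41). Cluster 8 had medians of 35 and 28, cluster 3 of 11 and 12, and stromal cells of 10 in both libraries. The median cell of cluster 11 held 1 UMI of the 30 mitosis genes in UW and 2 in W, against 15 and 14 in cluster 8. No mitosis UMI was found in 42.8% of cluster 11 cells in UW and 11.3% in W. Among stromal cells, 51.1% in UW and 38.5% in W had none, so such UMIs were found in stromal cells too. Whether any stromal cells were dividing, and the part of free RNA, were not tested.

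**Figure D2:**
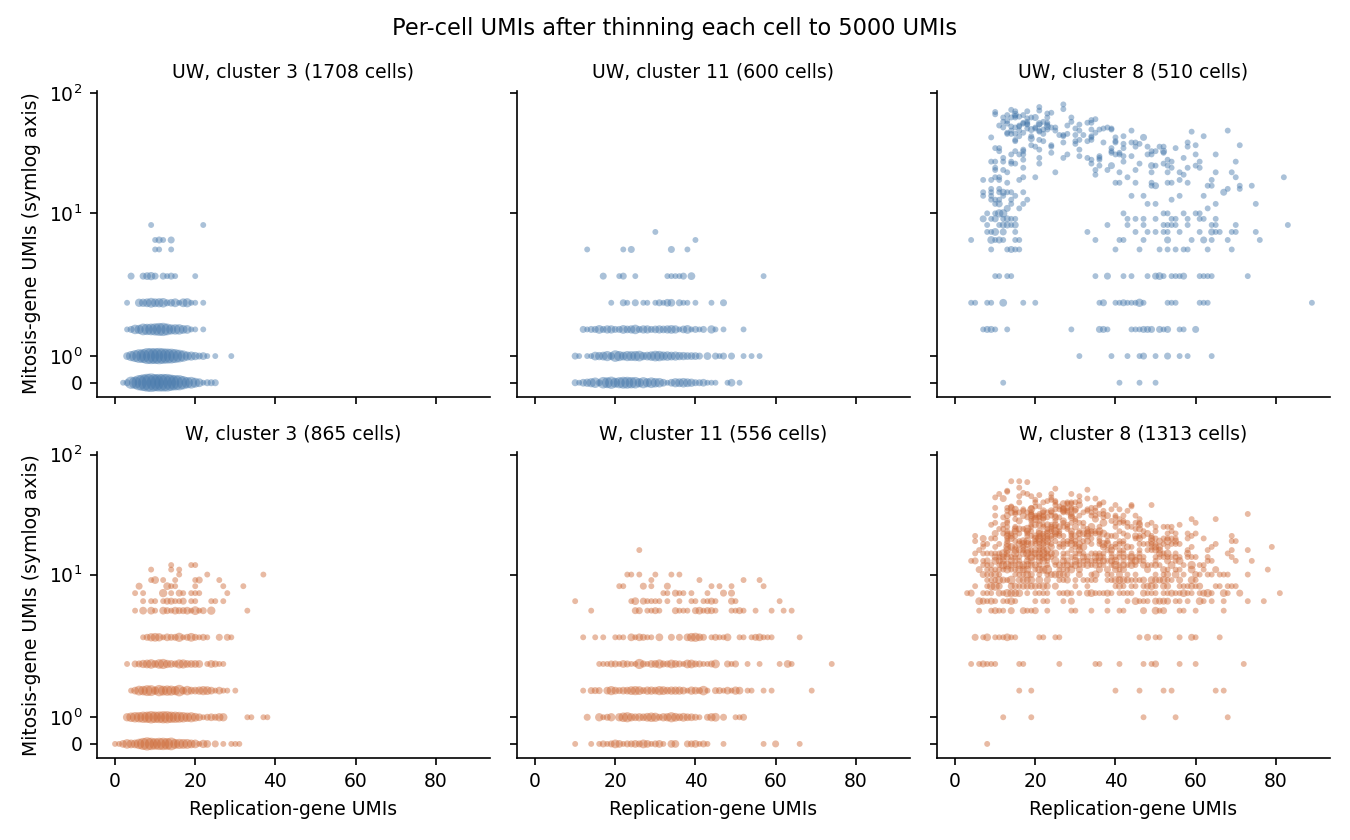
UMIs of replication genes (horizontal axis) and mitosis genes (vertical axis, linear near 0 and logarithmic above) in single cells thinned to 5000 UMIs, for clusters 3, 11 and 8 in UW (blue) and W (orange), each point standing for 1 or more cells with larger points for more cells. Cells of cluster 11 lie to the right of cluster 3, with medians of 25 and 33 against 11 and 12 replication UMIs, and below most cells of cluster 8, whose median mitosis UMIs were 15 and 14.

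Cells rich in replication transcripts were not confined to cluster 11. Epithelial cells were counted where they held at least as many replication UMIs as the lower quartile of cluster 11 in their own library, which was 20 in UW and 25.75 in W. Of 951 such cells in UW, 49.3% belonged to cluster 11, 34.9% to cluster 8 and 10.7% to cluster 9. In W there were 1473 cells past its higher limit, and the shares were 28.3%, 48.7% and 19.8%. As the limits differed, the numbers of the libraries are not compared. Among the epithelial clusters set beside it, cluster 9 held far more Gpha2, a marker of quiescent limbal stem cells (qLSCs). It held 1946 CPM of Gpha2 in UW and 1412 CPM in W, and cluster 11 held 62.4 and 134 CPM. Stromal cells held 821 and 4206 CPM.

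Scoring of the cycle by Seurat's S and G2/M gene lists, on cells thinned to 5000 UMIs, called 92.2% (89.7 to 94.2) of cluster 11 cells S in UW and 90.5% (87.7 to 92.8) in W. G2/M was called in 1.67% in UW and 8.09% (5.96 to 10.7) in W, and G1 in 6.17% and 1.44%. The calls rest on the transcripts from which the clusters were drawn, so they describe cluster 11 and cannot test its label. In cluster 8 the S share was 35.9% in UW and 23.6% in W. The S share was 19.9% and 31.4% in cluster 3, and calls alone are not read as cycling, since free RNA also enters the scores and its part was not tested. In cluster 11, 43 UW and 8 W cells had their higher score within 0.02 of the limit between G1 and the other phases. The share of cells with a Ccna2 UMI was 1.5% in UW and 7.55% in W, above the 0.39% and 1.52% of stromal cells at median depths of 11942 and 17648 UMIs before thinning.

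Of 12 keratins that passed the filter, 10 were higher in W, 1 was lower, and the median log2 ratio was 1.73. Of the 10 at 10 CPM or more in both libraries, 8 were higher and 1 was lower. Krt14, the partner of Krt5 in basal cells, stood at 1677 CPM in UW and 13736 CPM in W, a log2 ratio of 3.03 (3.01 to 3.05), while Krt5 stood at 6234 and 6361 CPM. Krt12 was lower at 24620 CPM in UW and 11176 CPM in W. The stress keratins Krt6a, Krt16 and Krt17 were higher, at 339 and 3111 CPM, 969.5 and 2888 CPM, and 131 and 549 CPM. Krt18, a keratin of simple epithelia, stood at 2.23 and 33.4 CPM, where cluster 3 held 2.29 and 297 CPM. Stromal cells held 57.4 CPM of Krt14 in UW and 821 CPM in W, and 24.7% and 97.2% of them gave a Krt14 UMI when thinned, against 85.7% and 100% of cluster 11 cells. The share in W is therefore near that of stromal cells, and the level is above theirs. The neutrophil cluster 13 held 4119 CPM of Krt14 in W, more than stromal cells and less than cluster 11.

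**Figure D3:**
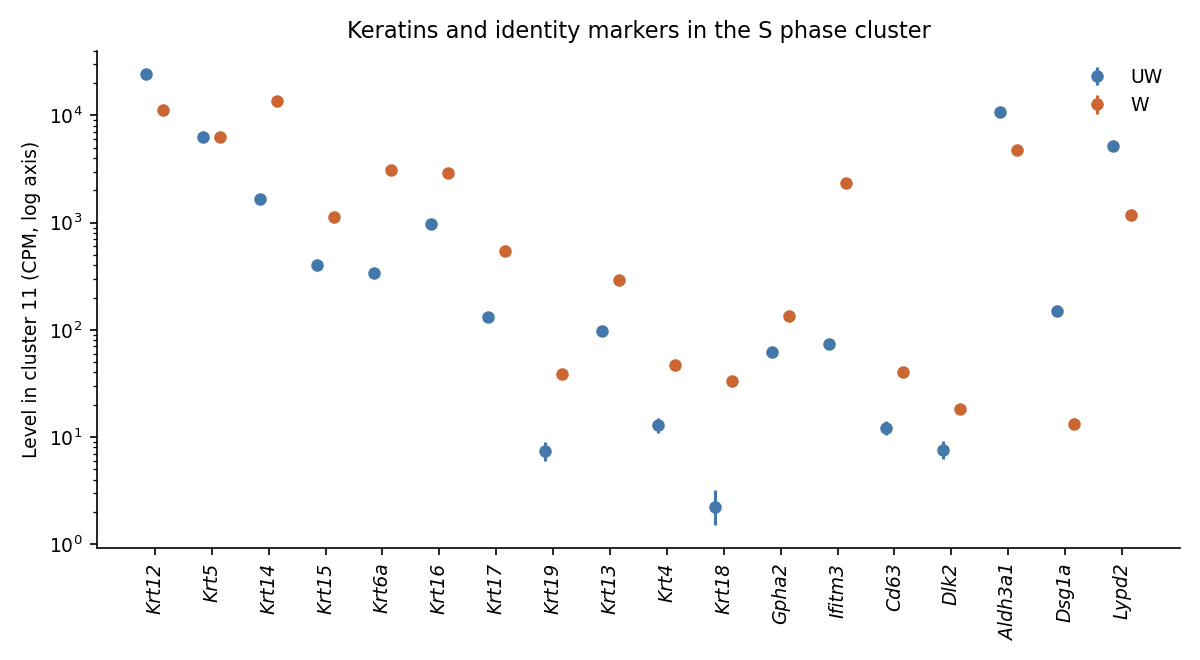
Levels of keratins and markers of limbal, suprabasal and superficial cells in cluster 11, in CPM on a log axis, for UW (blue) and W (orange), with exact Poisson 95% intervals where they exceed the point. Krt5 lies level at 6234 and 6361 CPM, Krt14 and Krt6a lie higher in W, and Krt12, Dsg1a and Lypd2 lie lower in W.

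Of 5 qLSC markers that passed the filter, 5 were higher in W. Krt15 stood at 403 CPM in UW and 1129 CPM in W. Dlk2, at 7.62 and 18.3 CPM, entered through W alone and fell just under the fold with cells thinned to 5000 UMIs. Ifitm3, also induced by interferon, stood at 73.1 and 2324 CPM. For Gpha2, Ifitm3 and Cd63 the stromal cells held more than cluster 11 in both libraries. A Gpha2 UMI was found in 23.0% of thinned cluster 11 cells in UW and 39.2% in W, under the 60.2% and 86.5% of stromal cells. These shares are not read as expression in cluster 11 or as a difference between the libraries, and where the UMIs came from was not tested. The 4 markers of active limbal stem cells (aLSCs), Atf3, Col17a1, Mt1 and Mt2, all had ratios below 0 and none passed the fold, although Atf3, at -0.99, passed it under 4 of the alternatives, such as TMM factors (-1.03).

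Of 7 markers of the suprabasal layers, 4 were lower in W and 2 higher. Of these, 2 entered through UW alone and 1 through W alone, and of the 4 at 10 CPM or more in both libraries 2 were lower and 1 higher. Dsg1a, a desmoglein of upper layers, stood at 149 CPM in UW and 13.4 CPM in W, and Dapl1 at 2017 and 471 CPM. The superficial marker Lypd2 stood at 5160.5 and 1166 CPM. Krt16 and Spink5 were the higher members. Of 9 basal markers, Krt14 was higher and Krt12 and Aldh3a1, the corneal crystallin that detoxifies aldehydes, lower.

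Of 17 transcription factors of ocular epithelium, 4 were higher in W and 0 lower, and of the 15 at 10 CPM or more in both libraries 2 were higher. Pax6, Trp63, Klf4, Klf5 and Elf3 lay between -0.33 and 0.22. Creb5 stood at 17.2 CPM in UW and 70.3 CPM in W, Elk3 at 10.2 and 42.9 CPM, and Irf7 at 7.54 and 64.0 CPM. Of unthinned UW cells, 20.9% of cluster 11 and 28.4% of stromal cells gave a Creb5 UMI, at median depths of 21461 and 11853 UMIs. Cluster 8 held more Creb5 UMIs per unthinned cell than cluster 11, 1.12 against 0.366 in UW and 3.85 against 2.49 in W. Where the Creb5 UMIs came from was not tested. Barx2 rested on 2 counts in UW, with a log2 ratio of 7.55 and a counting interval of 5.69 to 10.6. Among 9 genes of hemidesmosomes and laminin-332, which anchor basal cells, 0 were higher in cluster 11 and Dst was lower, with a median of -0.00. The median was 0.56 in cluster 3, where Lamb3 stood at 26.7 CPM in UW and 205 CPM in W. In cluster 11 Lamb3 stood at 32.5 and 54.3 CPM.

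The 10 largest ratios of W over UW at 100 CPM or more were those of S100a8, Ifi27l2a, S100a9, H2-Q7, Fabp5, Ifitm3, Ly6a, Bst2, Areg and BC100530. H2-Q7, Ly6a, Ifi27l2a and BC100530 belong to families with near-identical copies, so the split of reads among copies makes their values uncertain. S100a8 and S100a9, the subunits of calprotectin, stood at 0.692 and 288 CPM and at 5.92 and 492 CPM. They are also neutrophil genes, and the neutrophil cluster 13, with 710 W cells and 1 UW cell, held 13612 and 19963 CPM. Tyrobp and Srgn, which those cells also carry at 3414 and 6886 CPM, stood at 2.16 and 3.72 CPM in cluster 11 of W. Cluster 11 therefore held 2.12% of the neutrophil level of S100a8 and 0.0633% of that of Tyrobp. In stromal cells of W S100a8 stood at 46.0 CPM, and 14.4% of them gave a UMI when thinned, against 42.4% of cluster 11 cells in W. Ifi27l2a stood at 4.85 CPM in UW and 603 CPM in W, under the 97.5 and 1374.5 CPM of stromal cells, and Bst2, tetherin, at 7.46 and 137 CPM, under their 114 and 917 CPM. Stromal cells also held more in W of the other genes among the 10. Fabp5, a fatty acid carrier of keratinocytes, stood at 251 and 8261 CPM, and Areg, amphiregulin, a ligand of the EGF receptor, at 13.4 and 224 CPM.

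The 10 smallest ratios were those of Piezo2, Ces1d, Dsg1a, Socs3, Aldh1a1, Cyp3a13, Ahnak2, Hlf, Myo6 and Dbp. Piezo2, a mechanically gated channel, stood at 105 CPM in UW and 6.88 CPM in W. Socs3, the feedback inhibitor of gp130 receptors, stood at 373 and 35.7 CPM. Hlf and Dbp, output factors of the circadian clock, stood at 534 and 98.0 CPM and at 183 and 36.5 CPM. Each of the 20 genes lay on the same side in clusters 3 and 8, as the plot of the largest and smallest ratios shows.

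**Figure D4:**
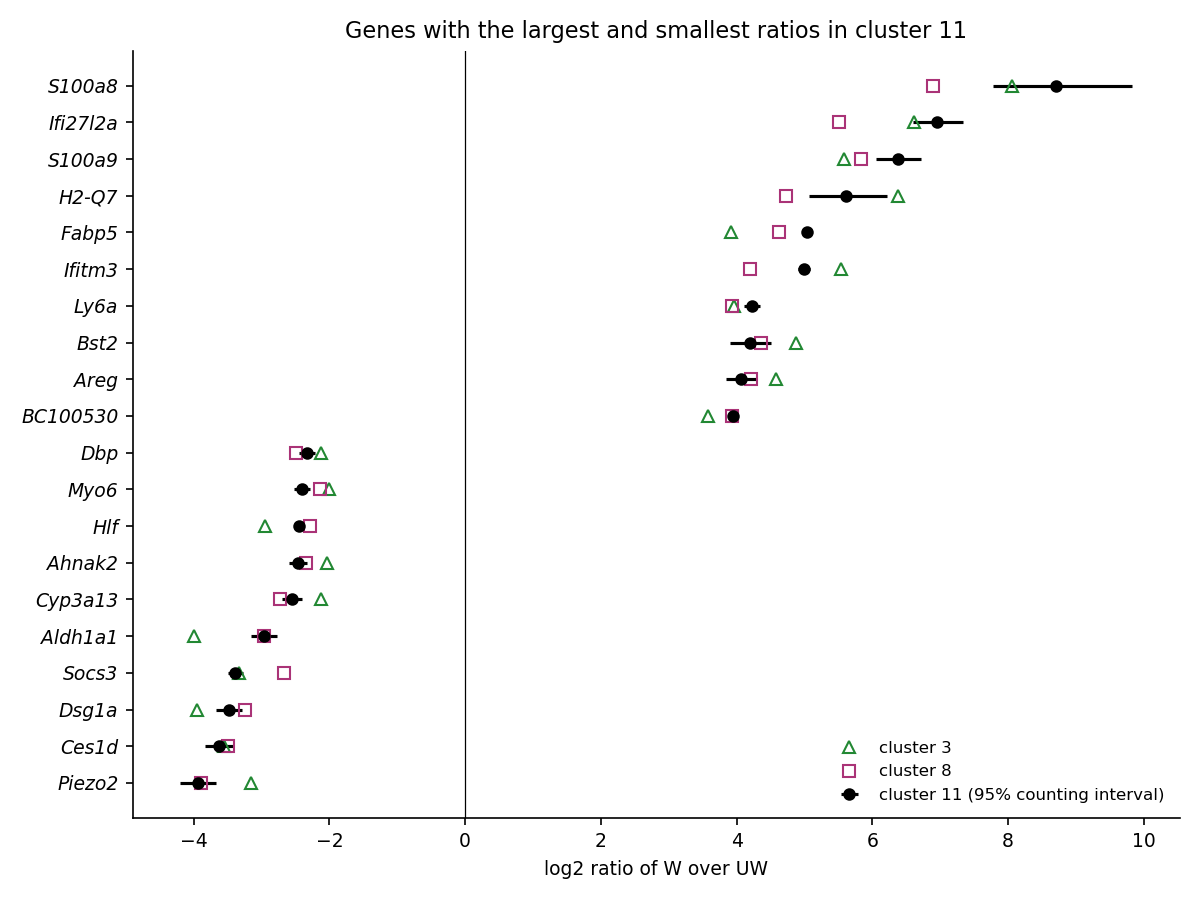
Log2 ratio of W over UW for the 10 genes with the largest and the 10 with the smallest ratio in cluster 11 (black points, exact 95% counting intervals), with the values of cluster 3 (triangles) and cluster 8 (squares). Every gene lies on the same side of 0 in the 3 clusters, from S100a8 at 8.70 to Piezo2 at -3.93 in cluster 11.

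Inflammation and interferon genes had mostly larger values in W. Of 24 inflammation genes, 23 had at least 20 counts, and 20 of those had a ratio above 0, with a median of 2.63. Of the 15 that reached 10 CPM, 10 did so in W alone, and of the 5 at 10 CPM or more in both libraries 0 were past the fold. Of 14 interferon genes 9 were higher and 1 lower, and of the 10 at 10 CPM or more in both libraries 5 were higher and 1 lower. Il1a, an epithelial alarm cytokine, stood at 9.92 CPM in UW and 50.2 CPM in W, and Ptgs2, which makes prostaglandins, at 6 and 57.4 CPM. Psmb8 and Psmb9, subunits of the immunoproteasome, stood at 28.5 and 240 CPM and at 22.1 and 124 CPM. Irf1 was the lower member, at 98.9 and 46.3 CPM. Sprr1b and Lcn2 rested on 2 and 3 counts in UW, with counting intervals of the log2 ratio of 4.72 to 9.64 and 3.97 to 7.82. Saa3, Lcn2 and Ccl2 stood higher in stromal cells of W (3674, 425 and 861 CPM) than in cluster 11 (20.2, 10.7 and 16.1 CPM). Whether RNA of other cells entered these levels was not tested.

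Of 12 genes for EGF receptor ligands and feedback, 2 were higher in W (Areg and Tgfa) and 2 lower (Egfr and Ier3), beside 8.99% and 7.97% of all genes. Tgfa entered through W alone. Egfr stood at 104 CPM in UW and 51.0 CPM in W, a log2 ratio of -1.02 that lay within the fold with thinned cells. Of 15 AP-1 and immediate early genes, 0 were higher and 7 lower, with Fos at 1724 and 682 CPM and Egr1 at 274 and 90.6 CPM. They are known to respond to dissociation too, and in stromal cells Fos stood at 3377 and 597 CPM, but the part of dissociation was not tested. All 10 genes of gp130 signalling had ratios below 0, and Socs3, Il6st, Lifr and Pim1 were lower past the fold.

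Of 16 clock genes, 10 were lower in W and 0 higher, with a median of -1.23. Of the 16, 4 entered through UW alone and 1 through W alone, and of the 11 at 10 CPM or more in both libraries 7 were lower and 0 higher. Over all 18 listed, each with at least 20 counts, 3 had a ratio above 0. Nr1d2 and Per3 lost the call with cells thinned to 5000 UMIs (-0.80 and -0.95). Nr1d1, a repressor of the clock, stood at 367 CPM in UW and 92.1 CPM in W, while Arntl, which it represses, stood at 8 and 10.6 CPM and Clock at 76.5 and 76.9 CPM. The time of day of collection was not given in the sources used here, and a time difference and the wound cannot be told apart.

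Of 17 glycolysis genes, 10 were higher and 2 lower, with a median of 1.31. Of the 13 at 10 CPM or more in both libraries, 8 were higher and 0 lower. Pkm, pyruvate kinase, stood at 242 CPM in UW and 972 CPM in W, and Tpi1 at 93.1 and 416 CPM. Pfkfb3 and Pfkm were the lower members. Slc16a3, an exporter of lactate, rested on 1 count in UW, with a log2 ratio of 7.43 and a counting interval of 4.94 to 12.7. The median of the same genes was 1.32 in cluster 3 and 1.11 in cluster 8, as the plot of list medians shows.

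Of 25 genes of ribosome biogenesis, 3 were higher in W and 0 lower, not far from the 8.99% of all genes that were higher, and 23 had a ratio above 0. Npm1, nucleophosmin, stood at 475 and 1213 CPM. Of 18 cholesterol genes, 4 were higher, among them Mvd at 8.62 and 48.0 CPM and Fdps at 111 and 356 CPM. Mvd entered through W alone, and of the 17 at 10 CPM or more in both libraries 3 were higher. Of 13 heat shock genes, 4 were lower, among them Hspa1b at 815 and 304 CPM. Hspa1a, another of the 4, at -1.03, lay within the fold with cells thinned to 5000 UMIs (-0.97). Hspb1, at -0.96, passed the fold with TMM factors (-1.01). Of 8 targets of p53, 1 was higher, again beside 8.99% of all genes. It was Bax, with a log2 ratio of 1.01 that fell under 1 with another scaling. The 81 of 84 cytosolic ribosomal protein genes that passed the filter had a median of -0.11.

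**Figure D5:**
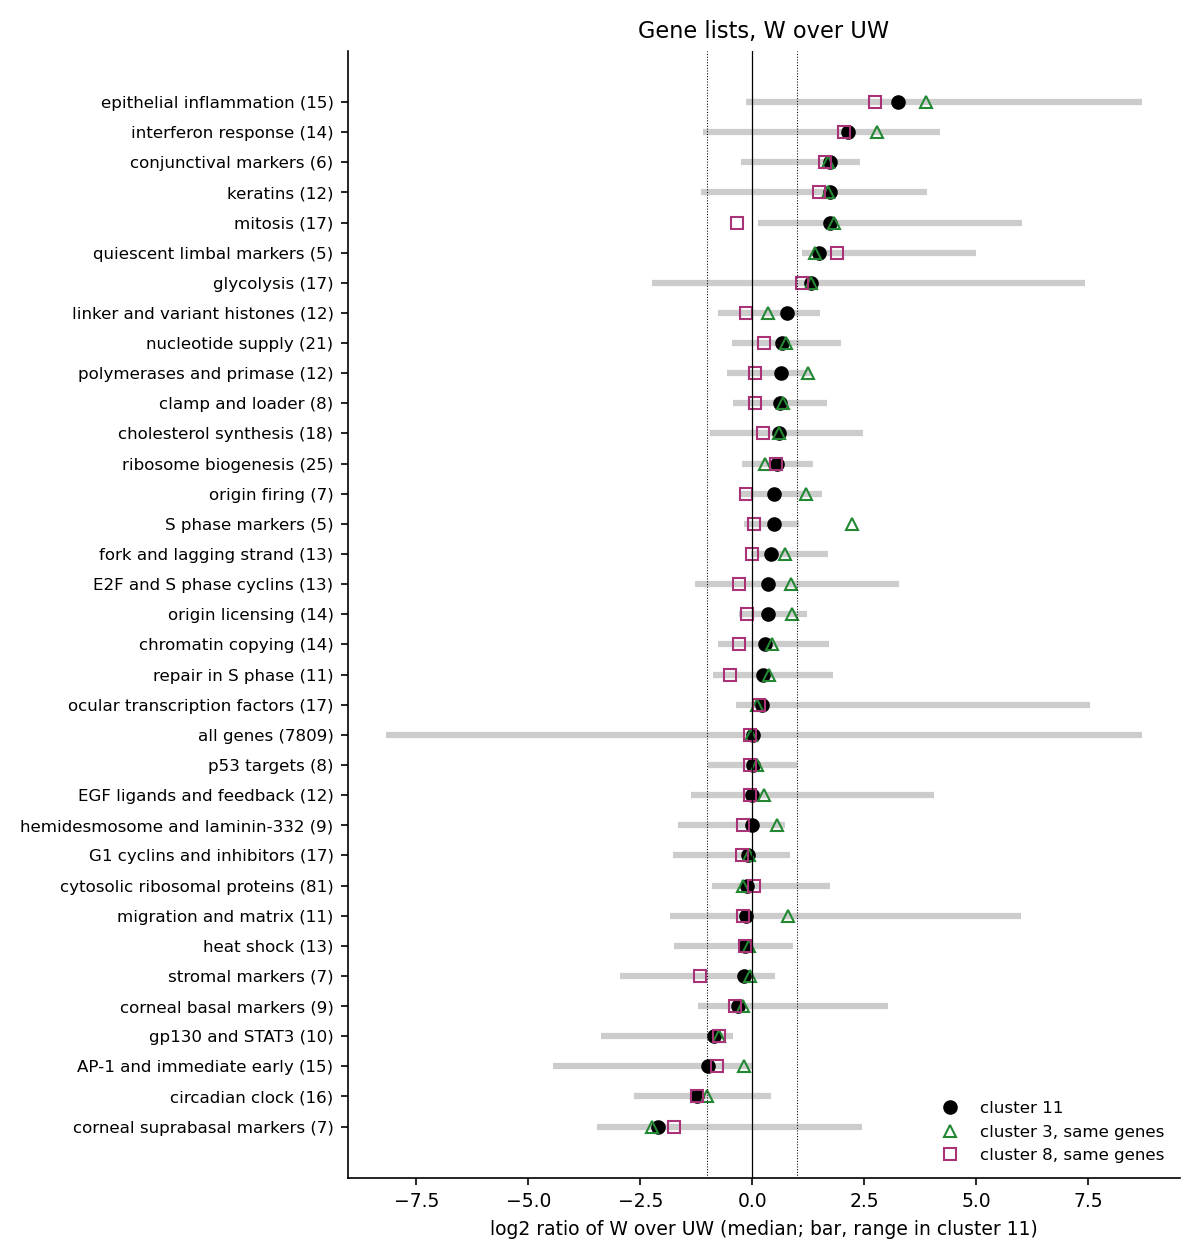
Median log2 ratio of W over UW in cluster 11 (black points) over the members of each gene list that could be compared, some of which entered through 1 library alone, with the range of its genes as a grey bar and the medians of the same genes in cluster 3 (triangles) and cluster 8 (squares), the number of genes in brackets and dotted lines at 2-fold. Mitosis genes lie at 1.73 in cluster 11 and -0.33 in cluster 8, whereas clock genes lie at -1.23, -1.01 and -1.23 in clusters 11, 3 and 8.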

How the data were processed

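Corneal cells were profiled in 1 UW and 1 W library with 10x Genomics 3′ kits (v3 in the labels, V2 in the study's methods). Reads were counted by the authors in Cell Ranger (3.1.0 in the submitters' processing notes), against mm10 by the study's methods and mm9 by those notes. In Seurat, droplets under 500 or over 8000 genes or over 10% mitochondrial UMIs were dropped, as were called doublets and cells marked by dissociation. The deposited values were raw UMI counts per gene and cell, with a table of cluster numbers and doublet calls for each cell. The deposited doublet columns still marked 16 UW and 2 W cells of cluster 11 as doublets in a first run of the caller, and these were left out in an alternative only.

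The counts of 20198 genes were summed over the cells of a cluster in each library in Python 3.11.15 with numpy 2.4.6 and scipy 1.17.1, and divided by the summed UMIs. With 1 library per condition no test, p-value or standard error was computed. TMM factors came from edgeR 4.0.16, median-of-ratios size factors from DESeq2 1.42.0, and phases from Seurat 5.3.0 under R 4.3.3. Thinning drew 5000 UMIs per cell without replacement. Where a sum was 0, the limit was set at 3 counts. The members and the gene lists were chosen with earlier results of these data known. Named genes were those of the lists, the 10 largest and 10 smallest ratios of W over UW at 100 CPM or more in a library (without mitochondrial, haemoglobin and ribosomal protein genes), and the 10 leading genes at 50 CPM or more in both libraries against the other epithelial clusters, cluster 8 and cluster 3. Mxd4 was named after its value was seen. Promoters came from RefSeq (GRCm38.p6), and 19881 of 20198 symbols were found once in GENCODE M21. Tables held 0 columns of other series. On simulated UW and W sums of cluster 11 with 20198 genes, 100% of 200 changed genes were recovered. The simulated counts held Poisson error only, without spread between mice, and every change was set larger than 2-fold in genes well above the filter. The recovery therefore checks the calculation and not the calls in these data.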

Additional observations from a re-analysis of the deposited data

Results flagged for a closer look

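Mki67 and Cenpf, both genes of dividing cells, passed 2-fold between W and UW in opposite directions in cluster 11 and in cluster 8. The log2 ratio of W over UW for Mki67 was 2.01 in cluster 11 and -1.47 in cluster 8, and for Cenpf, a protein of the kinetochore, 1.99 and -1.62. In CPM Cenpf stood at 2.54 in UW and 10.1 in W of cluster 11, and at 387 and 126 in cluster 8. Mki67 stood at 19.8 CPM in W of cluster 11, near the 17.4 CPM of the neutrophil cluster 13 in W. Mki67 and Cenpf were both under 10 CPM in UW of cluster 11 and could be compared there through W alone. The difference between clusters 11 and 8 was not tested, since each condition had 1 library. No group held enough libraries for a check of outlying samples.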

How the results depend on the processing

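No paired analysis was possible because each condition had 1 library, and for the same reason no library could be left out. With epithelial cells as the denominator, cluster 11 made up 4.53% of UW and 6.61% of W. Without a filter other than 20 counts, 1534 genes were at least 2-fold higher and 1130 at least 2-fold lower in W, and with a minimum of 50 CPM 296 and 260. With cells thinned to 5000 UMIs, 1 gene was higher in cluster 11 than in cluster 8, and 0 were lower than in cluster 3, in both libraries. Phase shares moved with depth and lists. Unthinned cells gave 98.0% S, 0.163% G2/M and 1.80% G1 in UW, and 98.2%, 1.60% and 0.178% in W. The replication and mitosis lists in place of Seurat's gave 95.7% S and 3% G1 in UW, and 94.4% S, 5.40% G2/M and 0.180% G1 in W. Shares of cells with a UMI rose with the UMIs per cell. Unthinned and at 10000 UMIs, Mcm3 was found in 82.7% and 66.5% of UW cells and 93.6% and 72.5% of W cells, Krt15 in 95.3% and 82.0% and in 100% and 98.7%, and Krt14 in 93.1% and 90.3% of UW cells. Mki67 was found in 7.35% of unthinned UW cells and in 39.3% and 15.3% of W cells, and Ccna2 in 3.92% of unthinned UW cells and in 39.1% and 13.7% of W cells. The medians of 33 lists of at least 5 genes shifted by at most 0.92 on the log2 scale (epithelial inflammation, from 3.26 to 2.34 with a minimum of 50 CPM), and 4 of them, all within 0.13 of 0, changed sign under 1 or more alternatives (hemidesmosomes, migration, EGF ligands and p53 targets). Of 2699 values for 409 named or listed genes, 48 crossed 2-fold, in 29 genes, and 0 changed direction.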

Other observations

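Of 12 linker and variant histone genes that passed the filter in cluster 11, H2afx, Hist1h1b and Hist1h4i were at least 2-fold higher in W and none lower, with a median log2 ratio of 0.78, and of the 10 at 10 CPM or more in both libraries 2 were higher. Most replication-dependent histone transcripts lack a poly(A) tail, so 3′ libraries capture them in part. Of 11 genes for migration and matrix, 8 stood at 10 CPM or more in both libraries, and 0 of those were higher in W and 1 was lower. Of the genes that entered through 1 library alone, Plau, the urokinase activator, was higher at 8.31 CPM in UW and 19.6 CPM in W, and Timp1 rested on 3 counts in UW with a counting interval of the log2 ratio of 4.43 to 8.28. Itga2, an integrin subunit for collagen, was lower at 21.9 and 8.04 CPM and entered through UW alone. The lower gene of the 8 was Fn1, fibronectin, at 80.2 and 22.6 CPM. In cluster 3 Itga2 stood at 17.8 and 27.8 CPM. Of 6 conjunctival markers, Krt4, Krt13, Krt17 and Krt19 were higher in W, and of the 5 at 10 CPM or more in both libraries 3 were, while the thinned share of cells with a Krt4 UMI, 5.83% in UW and 17.1% in W, lay under the 6.69% and 17.9% of stromal cells.

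Markers of other cell types were summed in cluster 11. Endothelial and vessel markers held 13.6 CPM in UW and 13.1 CPM in W, melanocyte and Schwann cell markers 5.46 and 1.86 CPM, and erythroid markers 0.54 and 2.46 CPM. Immune markers held 14.2 and 814 CPM, nearly all of it S100a8 and S100a9 in W.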
